A study of Mus musculus with 4 samples.

Results

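The MHC class II pathway was followed through 10 genes measured in the marrow and bone cells of the mouse tibia: the chain genes H2-Aa, H2-Ab1 and H2-Eb1, the invariant chain gene Cd74, the peptide-exchange genes H2-DMa, H2-DMb1 and H2-DMb2, their antagonists H2-Oa and H2-Ob, and the transactivator gene Ciita. They were taken by name, and all 10 are present among the 31053 genes of the deposited matrix. The cells were freed by enzyme digestion from both ends of the tibia of 8-week-old mice, where trabecular bone lies. The only group holds 4 records labelled as heterozygous controls (Col10a1Cre; Rosa26-Tdtomato; Irx3 +/Δ; Irx5 +/-) that received no PTH. Col10a1 drives Cre in hypertrophic chondrocytes, so the reporter was not made to mark blood cells, and no wild-type group was analysed here. Whether the 4 records stand for separate animals or for runs of 1 library is not labelled, and the matrix pools them under 1 barcode suffix, so all values come from 1 library and no test between samples was possible. Every interval below is a 95% interval for counting error only, except where another range is described.

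MHC class II molecules are pairs of an alpha and a beta chain that carry peptides from endosomes to the cell surface, where CD4+ T cells read them. H2-Aa and H2-Ab1 encode the I-A pair and H2-Eb1 the beta chain of I-E. CD74 holds newly made pairs together, blocks their groove and steers them to endosomes. There the H2-M dimer (H2-DMa with H2-DMb1 or H2-DMb2) exchanges the CD74 remnant for peptide, and H2-O (H2-Oa with H2-Ob) restrains it. CIITA binds no DNA itself; it is drawn to an X-Y promoter module by RFX, CREB and NF-Y proteins and switches the whole set on. Dendritic cells, B cells and some macrophages are the usual class II-expressing cells of marrow.

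In the GENCODE M21 annotation of GRCm38, all genes but Cd74 and Ciita lie on chromosome 17, from the start of H2-Oa at 34092340 to the end of H2-Eb1 at 34316674. RefSeq promoter entries (GRCm38.p6) existed for 7 of the members, with 8 start sites in all, and those of H2-Ab1, Cd74 and Ciita were not in the table. The sequences below are those of the members whose window held TGATTGG, a form of the Y box, the NF-Y site of the shared module. All 10 members, also those without a printed sequence, were higher in mature B cells than in pro-B or large pre-B cells. Capitals mark TGATTGG, its core ATTGG or the X-box form GNAACNG, on either strand. Bases that GENCODE places in an exon are not shown, except in H2-DMb1 and H2-Oa, where the Y box itself lies in or reaches into an annotated exon and only the 30 bases around it are given.
H2-Aa (chr17:34287824-34287943, minus strand): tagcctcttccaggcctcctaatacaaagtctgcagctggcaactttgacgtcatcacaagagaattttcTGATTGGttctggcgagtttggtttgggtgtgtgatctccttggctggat
H2-Eb1 (chr17:34305747-34305866, plus strand): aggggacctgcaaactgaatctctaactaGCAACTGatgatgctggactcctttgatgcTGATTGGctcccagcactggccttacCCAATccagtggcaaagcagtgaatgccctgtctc
H2-DMb1 (chr17:34153116-34153145, plus strand): tgattcactcagTGATTGGtctgacctgcc
H2-DMb2 (chr17:34145129-34145235, plus strand): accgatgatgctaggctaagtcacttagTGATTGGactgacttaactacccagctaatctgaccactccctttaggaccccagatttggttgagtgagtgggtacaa
H2-Oa (chr17:34092322-34092351, plus strand): agagaactgctcTGATTGGctgcttaccgc
H2-Ob (chr17:34238785-34238902, plus strand): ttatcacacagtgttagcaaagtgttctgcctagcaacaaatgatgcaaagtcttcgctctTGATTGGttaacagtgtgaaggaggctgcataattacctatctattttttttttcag

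These 6 genes were printed because they held TGATTGG within 250 bases before the RefSeq start. Its first base lay 50 bases before the start in H2-Aa, 61 in H2-Eb1, 63 in H2-DMb1, 92 in H2-DMb2, 45 in H2-Oa and 59 in H2-Ob. Neither H2-DMa window held it. The 7-letter form was picked after the sequences had been read. It occurred in 7.23% of all 32851 promoter windows of this length. The fixed core ATTGG, which it contains, was found in 7 of the 8 windows, against 33.8% of all windows. The X-box form GNAACNG was found in 2 of the 8, H2-Eb1 and H2-DMb1, against 35.9% of all windows. Only exact matches were counted, so a window without one is not shown to lack an X box. The printed H2-Aa and H2-Ob windows, for example, hold stretches that differ from this form in the last letter only. Matching letters are a description of these windows and say nothing of which proteins bind there.

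Counts are unique molecular identifiers (UMIs), and levels are a gene's share of all UMIs of a class, on the CPM scale. The library gave 15014 barcodes with a median of 3812 UMIs and 0 repeated barcodes. After filters on depth, genes and mitochondrial share, and removal of 522 called doublets (4.74%), 10485 cells remained in 49 clusters, formed without the 10 members and H2-Eb2. Names below stand for classes that resemble a cell type by fixed markers. They cover 579 pro-B or large pre-B cells, 563 cycling pre-B cells, 1033 small pre-B cells, 879 mature B cells, 47 plasma cells, 58 conventional and 88 plasmacytoid dendritic cells, 182 macrophages, 560 monocytes and other classes. A further 436 B cells stayed without a stage, no class was named immature B, and 304, 110 and 63 cells were unnamed for mixed, missing or shallow marker signals. The neutrophil and erythroid classes, whose cells should lack class II, give the background of free RNA.

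The 3 chain genes were highest in conventional dendritic cells and next in macrophages, mature B cells, plasmacytoid dendritic cells and monocytes. Their summed level was 21122 CPM in conventional dendritic cells (interval 20706 to 21544), 11914 CPM in macrophages (11615 to 12219) and 4594 CPM in mature B cells (4518 to 4670). Plasmacytoid dendritic cells had 1424 CPM (1336 to 1516), monocytes 1277 CPM (1248 to 1308) and osteoclasts, the bone-resorbing myeloid cells, 891 CPM (820 to 967). Up to this point in the order no 2 neighbours had overlapping intervals. Cycling pre-B cells followed with 464 CPM, B cells of unclear stage with 345 CPM, plasma cells with 266 CPM (233 to 302), small pre-B cells with 259 CPM (240 to 279), and pro-B or large pre-B cells with 208 CPM (197 to 219). The plasma and small pre-B intervals overlapped. T or NK cells had 199.5 CPM (176 to 225), which overlapped the pro-B interval. Erythroid cells had 106 CPM, and basophils or mast cells (60.4 CPM), neutrophils (59.6 CPM) and haematopoietic progenitors (52.8 CPM) could not be told apart by their intervals. Osteoblasts had 13 chain UMIs in all, or 33.8 CPM (up to 57.8), which overlapped the progenitors.

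**Figure D1:**
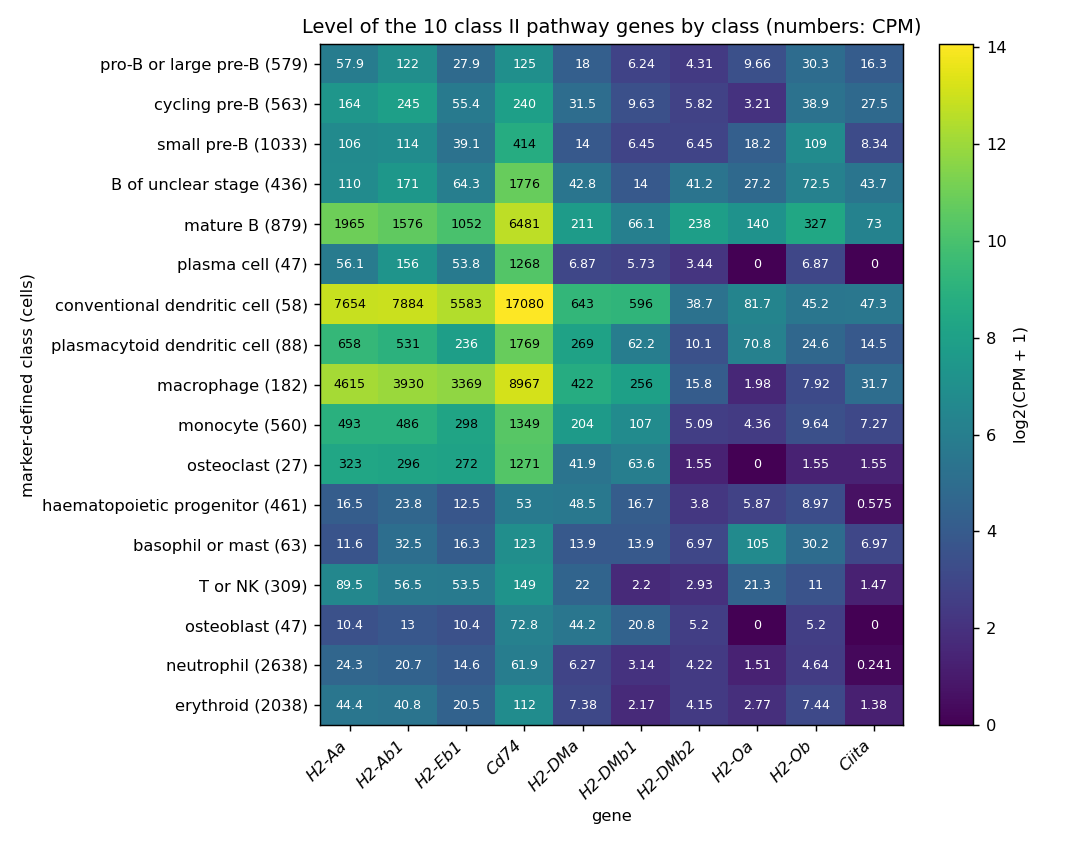
Level of each of the 10 genes (columns) in each marker-defined class (rows, with cells); colour is log2(CPM + 1) and the printed numbers are CPM. Chains and Cd74 are highest in conventional dendritic cells, macrophages and mature B cells, while H2-DMb2, H2-Oa and H2-Ob are highest in mature B cells.

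Mature B cells had far more chain RNA than pro-B or large pre-B cells. Of the 579 cells of that class, 332 were in cluster B4, which had 14.6 CPM of the marker Dntt. Its other clusters, B7 and B10, had 1316 and 1124 CPM of Dntt. The class values therefore describe B4 more than these Dntt-rich cells. H2-Aa, the I-A alpha chain, had 57.9 CPM in pro-B or large pre-B cells, 164 CPM in cycling pre-B cells, 106 CPM in small pre-B cells and 1965 CPM in mature B cells. H2-Ab1, its beta partner, had 122, 245, 114 and 1576 CPM in the same 4 stages, and H2-Eb1 had 27.9, 55.4, 39.1 and 1052 CPM. All 3 genes were thus somewhat higher in cycling pre-B cells than in pro-B or large pre-B cells, lower again in small pre-B cells and highest in mature B cells. Cycling pre-B cells had 2.23 times the summed chains of pro-B or large pre-B cells (2.09 to 2.39), small pre-B cells 0.557 times those of cycling pre-B cells (0.511 to 0.607), and mature B cells 17.8 times those of small pre-B cells (16.4 to 19.2). Against pro-B or large pre-B cells the ratio of mature B cells was 22.1 (20.9 to 23.3). A member counted as higher or lower at a ratio of 2 or more with 0.5 counts added to each class, as did any other gene with at least 20 UMIs over both classes. From pro-B or large pre-B to cycling pre-B cells 2 of the 10 members were higher (H2-Aa and H2-Ab1) and 1 lower (H2-Oa), where 5.74% of all genes were higher and 9.59% lower. From cycling to small pre-B cells 2 were higher (H2-Oa and H2-Ob) and 3 lower (H2-Ab1, H2-DMa and Ciita), where 13.3% of genes were higher and 13.9% lower. From small pre-B to mature B cells all 10 were higher, where 11.0% of genes were higher and 9.85% lower. Mitochondrial shares stood beside this comparison: the median was 8.15% in mature B cells and 6.67% in pro-B or large pre-B cells. With a limit of 5%, only 18 of the 879 mature B cells were kept, the 38 cells then named mature B shared none with them, and the ratio was 1.01 (0.783 to 1.28). With classes taken from marker UMIs in each cell it was 7.15 (6.74 to 7.59).

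The chains were also counted per cell after each cell was thinned to 1000 UMIs, which leaves out shallower cells. A chain UMI was found in 76.2% of 866 mature B cells (73.2% to 79.0%), 121 of 1008 small pre-B cells, 32.4% of 558 cycling pre-B cells (28.6% to 36.5%) and 17.1% of 572 pro-B or large pre-B cells. The background was 4.18% of 2559 neutrophils (3.44% to 5.03%). This value is pooled over neutrophil clusters that differed in chain level, as given below, and its interval does not cover that spread. Before thinning, the shares were 85.0% in mature B cells (median depth 2827 UMIs), 79.9% in cycling pre-B cells (8034 UMIs) and 12.5% in neutrophils (4235.5 UMIs). The cycling pre-B signal lay in many cells at a low level: the highest of these cells had 4 chain UMIs among 1000, where the median mature B cell had 5 and the highest had 21.

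The 3 chains were not in the same proportion at each stage. H2-Ab1 gave 67.8% of H2-Aa and H2-Ab1 UMIs in pro-B or large pre-B cells (65.1% to 70.5%), 60.0% in cycling pre-B cells, 51.8% in small pre-B cells (47.7% to 56.0%) and 44.5% in mature B cells (43.6% to 45.5%). It made up 82.3% of 62 UMIs in B7, the Dntt-rich and little-dividing pro-B cluster, and 78.0% of 82 UMIs in B10, the Dntt-rich cluster with many Mki67 UMIs. Dntt encodes the enzyme that adds bases at V(D)J joints, and Mki67 marks dividing cells. In plasma cells H2-Ab1 outnumbered H2-Aa too, at 136 against 49 UMIs. H2-Eb1 gave 13.4% of chain UMIs in pro-B or large pre-B cells, 11.9% in cycling pre-B cells, 15.1% in small pre-B cells and 22.9% in mature B cells, and 26.4% and 28.3% in conventional dendritic cells and macrophages. Neutrophil background had 46.0% H2-Ab1 (42.4% to 49.6%) and 24.5% H2-Eb1 (21.8% to 27.3%), and both of these intervals lay apart from those of pro-B or large pre-B cells and of cycling pre-B cells.

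Mature B cells were themselves uneven. All of their clusters had raised immature B markers beside 7 to 10 raised mature B markers. These were 4 in B5 and in B12, 5 in B6, and 6 in B8 and in B11. Cluster B5 (326 cells, 1273 CPM of the IgD gene Ighd) had 8433 CPM of summed chains, and B8 (167 cells, 1130 CPM of Ighd) had 4955 CPM. The cluster richest in the immediate-early gene Egr1 (5030 CPM), B12 with 47 cells, had 9710 CPM of chains. Egr1 did not follow the chains over these clusters. It was next highest in B6 (2724 CPM) and B11 (1065 CPM), and lower in B8 (101 CPM) and B5 (53.2 CPM). B6 (282 cells), with 265 CPM of Ighd and 6421 CPM of the IgM gene Ighm, had 1799 CPM of chains. B11 (57 cells), with 219 CPM of Ighd and 855 CPM of Mki67, had 1436 CPM. The 2 clusters with the least Ighd therefore also had the least chain RNA. Earlier cells did not show that order. Small pre-B cells had 356 CPM of chains in B0 (137 CPM of Ighd) and 97.9 CPM in B2 (79.4 to 119; 238 CPM of Ighd), and pro-B or large pre-B cells ranged from 71.1 CPM in B7 to 253 CPM in B4, the cluster with few Dntt UMIs. Of these clusters only B0 lay above the range of the neutrophil clusters, 35.6 to 286 CPM, and the class levels of pro-B or large pre-B cells (208 CPM) and small pre-B cells (259 CPM) lay within it.

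Cd74, on chromosome 18 from 60803848 to 60812652, followed another course than the chains. It had 125 CPM in pro-B or large pre-B cells, 240 CPM in cycling pre-B cells, 414 CPM in small pre-B cells (390 to 440) and 6481 CPM in mature B cells. It was thus higher at each step, also between cycling and small pre-B cells, where the chains were lower: small pre-B cells had 1.73 times the Cd74 of cycling pre-B cells (1.59 to 1.88). The first 2 of these 4 levels lay within the range of the neutrophil clusters, 23.8 to 280 CPM. The invariant chain share of Cd74 plus chain UMIs was 37.5% in pro-B or large pre-B cells, 34.1% in cycling pre-B cells, 61.6% in small pre-B cells (59.2% to 63.8%) and 58.5% in mature B cells. B cells of unclear stage, which had 1295 CPM of the B-cell surface gene Ms4a1 and 191 CPM of Ighd, stood out with 1776 CPM of Cd74 against 345 CPM of chains. Cd74 was 83.7% of their Cd74 and chain UMIs (82.2% to 85.1%). In these cells a Cd74 UMI was found in 52.7% of thinned cells and a chain UMI in 15.7%, against 3.09% and 4.18% in neutrophils.

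**Figure D2:**
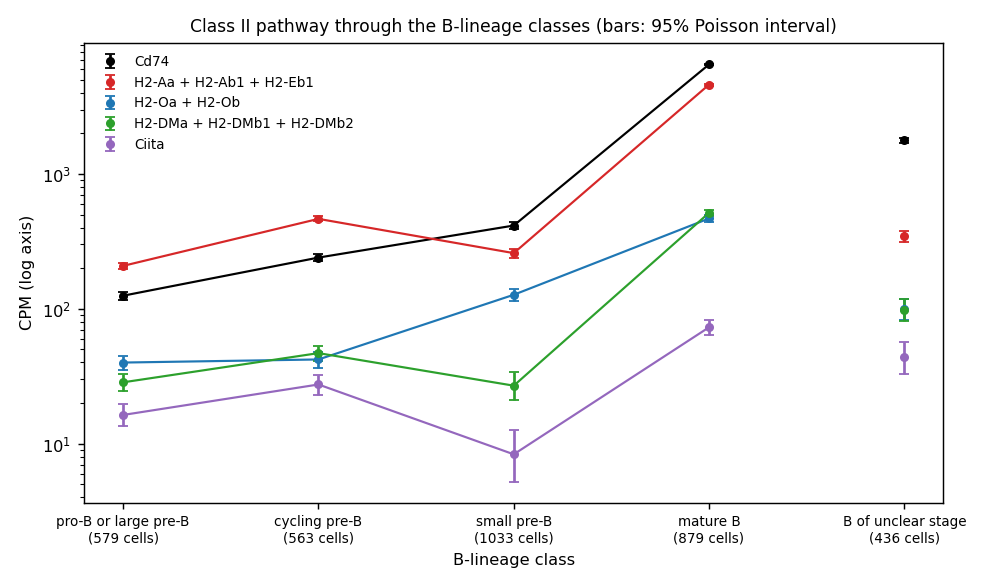
Summed level (CPM, log axis) of the chains, Cd74, H2-DM, H2-O and Ciita in 4 B-lineage stages joined by lines, with the B cells of unclear stage as separate points; bars are 95% Poisson intervals. Chains, H2-DM and Ciita lie lower in small pre-B than in cycling pre-B cells, whereas Cd74 and H2-O lie higher.

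Plasma cells, the antibody-secreting end of the lineage, had less of every member than mature B cells, with the highest ratio for Cd74. Cd74 had 1268 CPM in plasma cells, against 6481 CPM in mature B cells, a ratio of 0.196 (0.184 to 0.208). The chains were at 266 CPM in plasma cells and 4594 CPM in mature B cells, a ratio of 0.0579 (0.0506 to 0.0659). H2-Aa had 56.1 CPM, H2-Ab1 156 CPM and H2-Eb1 53.8 CPM in the 47 plasma cells. H2-DM had 14 UMIs and H2-O 6 UMIs in all plasma cells, ratios of 0.0312 (0.0170 to 0.0524) and 0.0147 (0.00539 to 0.0321) to mature B cells. Ciita and H2-Oa had 0 UMIs, so their ratios to mature B cells had upper limits of 0.0584 and 0.0302. Set at the floor of 3 counts over the class (3.44 CPM), they would be 21.2-fold and 40.9-fold lower than in mature B cells. All 10 members were lower by 2-fold or more, but so were 59.6% of 8916 genes (4.76% were higher), whose median log2 ratio was -1.25. The interval of H2-DMb1, from 5 UMIs, ran from 0.0278 to 0.205 and so overlapped that of Cd74. The chain levels in plasma cells also lay within the range of the neutrophil clusters (35.6 to 286 CPM), while Cd74 at 1268 CPM lay above that range (23.8 to 280 CPM).

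The 2 genes for the H2-M beta chain divided between lineages. H2-DMb2 had 238 CPM in mature B cells (221 to 255), against 38.7 CPM in conventional dendritic cells, 10.1 CPM in plasmacytoid dendritic cells, 15.8 CPM in macrophages and 5.09 CPM in monocytes. H2-DMb1 ran the other way in 3 of these 4, with 66.1 CPM in mature B cells against 596 CPM in conventional dendritic cells (528 to 670), 256 CPM in macrophages and 107 CPM in monocytes, while plasmacytoid dendritic cells had 62.2 CPM. As a share of the UMIs of both genes, H2-DMb2 made up 78.2% in mature B cells (75.4% to 80.8%) and 74.6% in B cells of unclear stage (62.5% to 84.5%). It made up 14.0% in plasmacytoid dendritic cells (5.82% to 26.7%), 6.10% in conventional dendritic cells (3.66% to 9.47%), 5.84% in macrophages (2.55% to 11.2%) and 4.52% in monocytes (3.03% to 6.47%). Earlier B stages lay between, at 40.8% of 71 UMIs in pro-B or large pre-B cells (29.3% to 53.2%), 37.7% of 77 UMIs in cycling pre-B cells and 17 of only 34 UMIs in small pre-B cells. All 5 mature B clusters were alike in this, from 75.4% to 81.6%. The neutrophil background had 57.4% (48.1% to 66.3%), which overlapped the intervals of the 3 early stages, and the part of free RNA in those values was not tested.

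H2-DMb1 and H2-DMb2 are near copies, and reads could in part be assigned to the wrong one. Of the 451 stretches of 50 bases in the last 500 bases of the longest coding H2-DMb1 transcript, 92 (20.4%) also occur in an annotated H2-DMb2 transcript, and none of those of H2-DMb2 occur in H2-DMb1. The levels of both genes are therefore uncertain by an unknown amount, and the opposite shares in B and myeloid cells came from the same counting. H2-DMa, the alpha chain shared by both forms, had 643 CPM in conventional dendritic cells, 422 CPM in macrophages, 269 CPM in plasmacytoid dendritic cells, 211 CPM in mature B cells and 204 CPM in monocytes. In the B lineage it had 121 UMIs in pro-B or large pre-B cells, and 31.5, 14.0 and 211 CPM in cycling pre-B, small pre-B and mature B cells. Mature B cells had 11.7 times the H2-DMa of pro-B or large pre-B cells (9.66 to 14.4).

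H2-O was highest in mature B cells. H2-Ob had 30.3 CPM in pro-B or large pre-B cells, 38.9 CPM in cycling pre-B cells, 109 CPM in small pre-B cells (96.6 to 122) and 327 CPM in mature B cells. H2-Oa had 9.66, 3.21, 18.2 and 140 CPM in the same order. Small pre-B cells, in which the chains were lower than in cycling pre-B cells, thus had more of both: 2.80 times the H2-Ob (2.32 to 3.37) and 5.67 times the H2-Oa (3.16 to 10.7). The share of H2-O in H2-O plus H2-DM UMIs was 58.4% in pro-B or large pre-B cells, 47.3% in cycling pre-B cells, 82.5% in small pre-B cells (78.5% to 86.1%) and 47.6% in mature B cells (45.8% to 49.4%). In cluster B2, the small pre-B cluster with the lowest chains, H2-Ob reached 145 CPM and the H2-O share 91.9% of 185 UMIs, where neutrophil clusters had 2.54 to 14.6 CPM of H2-Ob. The share was 9.04% in conventional dendritic cells (6.95% to 11.5%), 38.6 percentage points below that of mature B cells (34.3 to 42.4). It was 21.9% in plasmacytoid dendritic cells, 4.23% in monocytes and 1.41% in macrophages (0.459% to 3.26%). A high share was not limited to B cells. Basophils or mast cells had 58 H2-O and 15 H2-DM UMIs, and T or NK cells 44 and 37. The background classes had 155 and 208 (erythroid) and 102 and 226 (neutrophil). The part of free RNA in the B-lineage shares was not tested.

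The 2 H2-O genes were not in the same proportion in all classes. H2-Oa made up 431 of 1435 H2-O UMIs in mature B cells (27.7% to 32.5%) but 64.4% in conventional dendritic cells (50.9% to 76.4%), 74.2% in plasmacytoid dendritic cells (62.0% to 84.2%), 65.9% in T or NK cells (50.1% to 79.5%) and 77.6% in basophils or mast cells (64.7% to 87.5%). At the other end, it was 7.62% in cycling pre-B cells (4.42% to 12.1%) and 14.3% in small pre-B cells (10.8% to 18.5%). Monocytes (31.2%), erythroid cells (27.1%), neutrophils (24.5%) and pro-B or large pre-B cells (24.2%) had intervals that overlapped that of mature B cells, and progenitors had 39.5% (31.0% to 48.5%), which overlapped it too. Basophils or mast cells had 45 H2-Oa UMIs over 63 cells, 105 CPM (76.3 to 140), against 1.51 CPM in neutrophils (0.976 to 2.23), a ratio of 69.3 (41.6 to 118). Their chains were at the neutrophil level, 60.4 against 59.6 CPM, a ratio of 1.01 (0.659 to 1.49). After thinning, 9 of 61 of these cells (14.8%, 6.98% to 26.2%) had an H2-Oa UMI, against 0.117% of neutrophils. In basophils or mast cells against neutrophils 5 of 9 members tested were higher (H2-Oa, H2-Ob, H2-DMa, H2-DMb1 and Cd74, whose ratio without added counts was 1.99, 1.48 to 2.62), where 36.0% of genes were higher and 11.9% lower. Conventional dendritic cells had 81.7 CPM of H2-Oa (57.8 to 112) and plasmacytoid dendritic cells 70.8 CPM (52.4 to 93.6), whose intervals overlapped each other and that of basophils or mast cells.

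**Figure D3:**
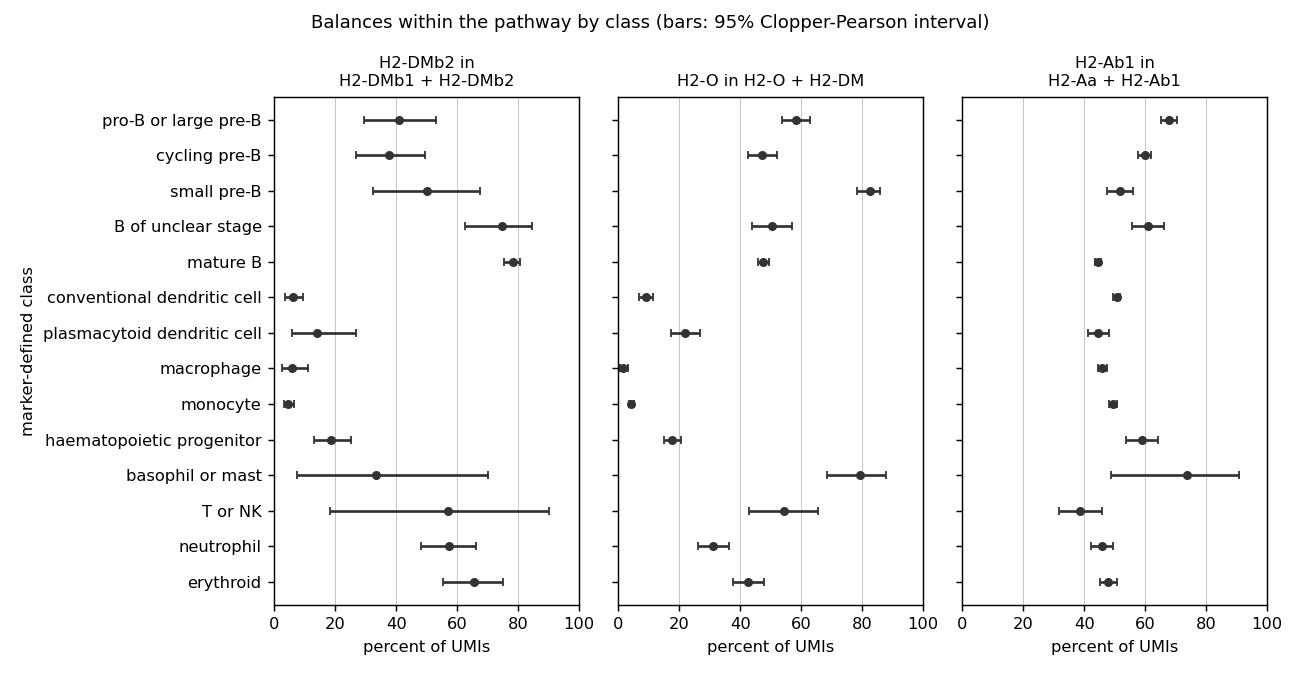
Percent of UMIs (x axis) by named class (rows), without plasma cells, osteoclasts and osteoblasts. Panels give H2-DMb2 within H2-DMb1 and H2-DMb2 (left), H2-O within H2-O and H2-DM (middle) and H2-Ab1 within H2-Aa and H2-Ab1 (right). Bars are 95% Clopper-Pearson intervals. The H2-DMb2 share is highest in mature B cells and B cells of unclear stage. Neutrophil and erythroid rows lie above pro-B or large pre-B and cycling pre-B rows in this share. The H2-O share is highest in small pre-B cells and in basophils or mast cells. Both shares are low in conventional dendritic cell, macrophage and monocyte rows. The H2-Ab1 share is highest among the B stages shown in pro-B or large pre-B cells.

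Ciita, the switch of the set, on chromosome 16 from 10480059 to 10528418, was sparse and did not keep one proportion to the chains. It had 16.3 CPM in pro-B or large pre-B cells (13.4 to 19.7), 27.5 CPM in cycling pre-B cells (23.1 to 32.5), 8.34 CPM in small pre-B cells (5.23 to 12.6) and 73.0 CPM in mature B cells (63.7 to 83.2). B cells of unclear stage had 43.7 CPM (32.7 to 57.1). Ciita thus shared the dip of the chains in small pre-B cells, at 0.304 times its cycling pre-B level (0.184 to 0.478). Conventional dendritic cells, with 4.60 times the chains of mature B cells (4.48 to 4.72; 1.89 with classes from marker UMIs and 69.7 at the 5% mitochondrial limit), had 47.3 CPM of Ciita (29.7 to 71.6) and macrophages 31.7 CPM (18.1 to 51.5). Monocytes had 7.27 CPM and neutrophils 0.241 CPM.

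Per 1000 chain UMIs there were 78.5 Ciita UMIs in pro-B or large pre-B cells, 59.2 in cycling pre-B cells, 32.3 in small pre-B cells and 126 in B cells of unclear stage. Mature B cells had 15.9, monocytes 5.69, macrophages 2.66 and conventional dendritic cells 2.24. As a share of Ciita plus chain UMIs, the pro-B or large pre-B value was 7.28% (6.02% to 8.71%) and the neutrophil value 0.403% (0.110% to 1.03%), which rests on 4 Ciita UMIs. The part of free RNA in the early counts was not tested. Plasmacytoid dendritic cells had 14.5 CPM of Ciita from 10 UMIs (6.93 to 26.6). Only 687 Ciita UMIs were counted in all kept cells, and shares of cells with a UMI stayed at 7.97% or less in each class after thinning.

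**Figure D4:**
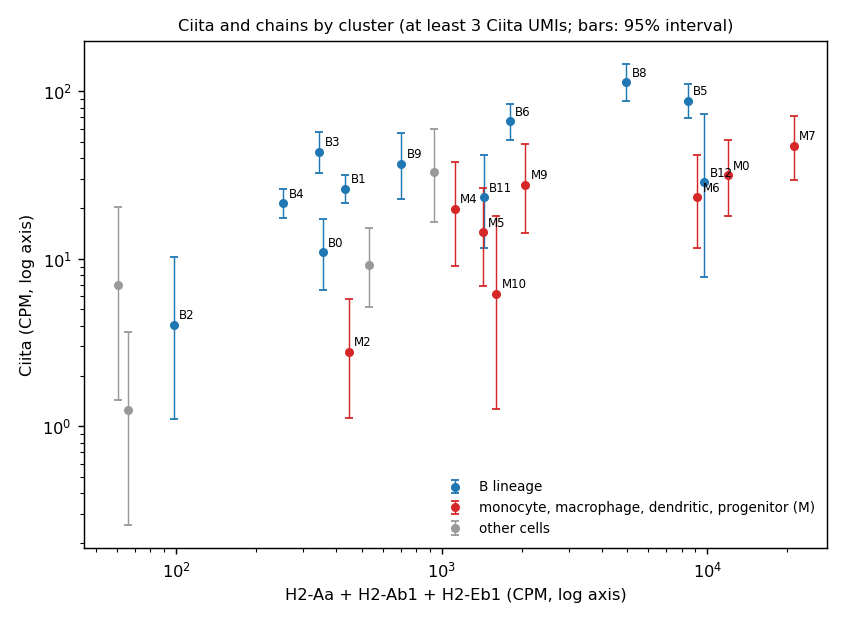
Ciita (CPM, y axis, log) against the summed chains (CPM, x axis, log) in the clusters with at least 3 Ciita UMIs; colours mark B lineage, myeloid (M) and other clusters and bars are 95% Poisson intervals. The mature B clusters B5 and B8 lie above the conventional dendritic cluster M7 in Ciita at lower chain levels, and B1, B3 and B4 have more Ciita than the monocyte cluster M2 at like or lower chain levels.

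Monocyte clusters differed widely in class II. Among the 6 monocyte clusters the chains ranged from 94.0 CPM in M1 (up to 114) and 203 CPM in M8 to 447 CPM in M2, 1120 CPM in M4, 2065 CPM in M9 and 9141 CPM in M6. M4 had the most Ace (221 CPM) and Cd300e (66.4 CPM) of these clusters, genes of patrolling monocytes. M4 also had 1363 CPM of Ly6c2, a gene of classical monocytes, which was among its raised markers. M6, with 69 cells, had 7 raised monocyte markers, but also 6 raised markers of conventional dendritic cells and 4 of macrophages. It also had 113 CPM of Ace. The other monocyte clusters had at most 5 raised dendritic markers. M7, the only cluster of the conventional dendritic class (58 cells), in turn had 5 raised monocyte markers and 3 of plasmacytoid dendritic cells. These stood beside 12 raised markers of its own type. M6 had 1020 CPM of the classical monocyte gene Ly6c2, against 961 to 2326 CPM in the other 5 clusters, and the most Cd209a of the 6 (147 CPM), and the part of dendritic or macrophage cells in its chain level was not tested. M9 also held B-cell genes (553 CPM of Cd79a, against 6.39 to 29.1 CPM in the other monocyte clusters), and its H2-DMb2 share of 18.9% and 78.4 CPM of H2-O were the highest of the 6. Doublets in M9 were not tested further than by the caller.

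Monocytes as a class had 21.4 times the summed chains of neutrophils (20.1 to 22.9), 1277 against 59.6 CPM. It was 9.11 without M6 (8.47 to 9.81) and 20.3 without M9. It was 1.49 (1.33 to 1.66) when the class II genes were allowed to shape the clusters, 5.99 with doublets kept, 6.18 with at least 1500 UMIs per cell and 13.3 at a coarser clustering. Per cell, a chain UMI was found in 56.5% of 69 thinned M6 cells, 6.21% of 161 M1 cells, 6.67% of 135 M2 cells and 4.18% of neutrophils. The median M6 cell had 2 chain UMIs among 1000 and the highest had 52, so the cells of M6 differed widely among themselves.

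Peptide-exchange genes were spread more evenly over monocytes than chains. H2-DM had 198 CPM in M1, 276 CPM in M2, 290 CPM in M8, 323 CPM in M9, 341 CPM in M4 and 824 CPM in M6. In M1 H2-DM made up 67.8% of H2-DM plus chain UMIs, and in the progenitor cluster M3, which had 107 CPM of H2-DMa, 68.5%. In neutrophil background this share was 18.6% (16.5% to 20.9%), in conventional dendritic cells 5.70% and in macrophages 5.50%. H2-DMa alone had 48.5 CPM in haematopoietic progenitors (44.0 to 53.4), against 6.27 CPM in neutrophils (5.13 to 7.6), while the chains had 52.8 and 59.6 CPM in the same classes.

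Macrophages, which carried C1qa, C1qb and C1qc, had 9.33 times the chains of monocytes (9.01 to 9.65) and 2.19 times the H2-DM (1.94 to 2.45), but 0.707 times the H2-O from 5 UMIs (0.223 to 1.72). Of the members 8 were higher, where 13.9% of genes were higher and 17.1% lower. Their median depth was only 924 UMIs, so 86 of 182 cells could be thinned, and 70.9% of these had a chain UMI (60.1% to 80.2%). The median was 6 chain UMIs among 1000 and the lower quartile was 0. Conventional dendritic cells had 1.77 times the chains of macrophages (1.72 to 1.83), 1.90 times the Cd74 (1.84 to 1.98) and 1.84 times the H2-DM (1.61 to 2.11). H2-O had a ratio of 12.8 (5.19 to 40.9). The 5 members called higher were H2-Ab1, H2-DMb1, H2-DMb2, H2-Oa and H2-Ob, where 11.4% of genes were higher and 17.4% lower. The last 3 had only 8, 1 and 4 UMIs in macrophages. Against monocytes, conventional dendritic cells had all 10 members higher, where 6.91% of genes were higher and 16.4% lower. Their median cell had 22 chain UMIs among 1000, and 80.4% of 56 cells had one (67.6% to 89.8%). Plasmacytoid dendritic cells, the interferon-producing type, had 0.310 times the chains of mature B cells (0.290 to 0.331) and 0.0426 times the H2-DMb2 (0.0171 to 0.0882), but 1.27 times the H2-DMa (1.08 to 1.50). In that comparison 0 members were higher and 7 lower, where 14.0% of genes were higher and 9.86% lower.

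**Figure D5:**
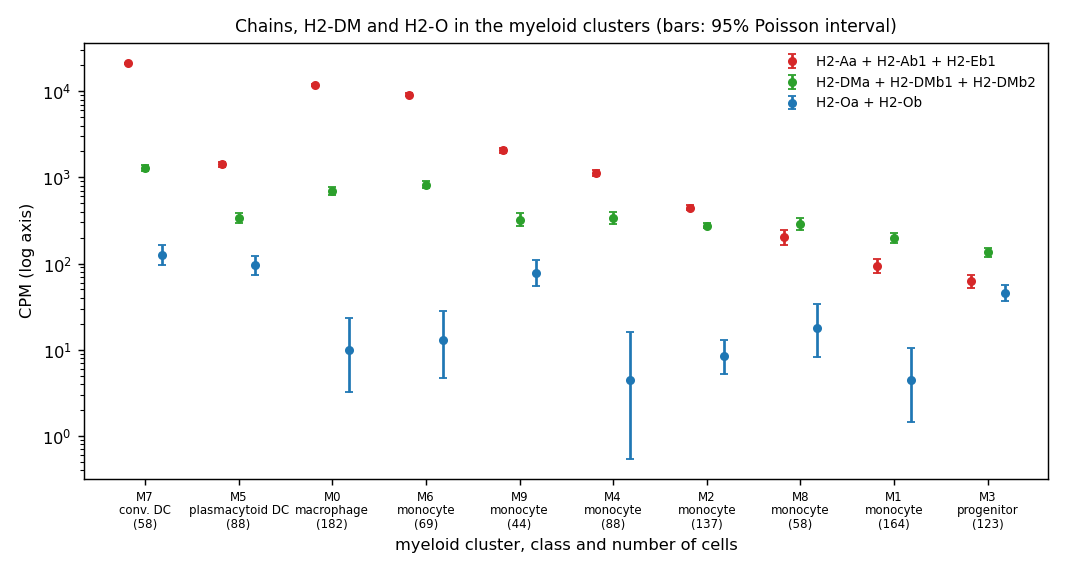
Summed chains, H2-DM and H2-O (CPM, y axis, log) in 10 myeloid clusters (x axis, with class and cells); bars are 95% Poisson intervals. Chains fall over 2 orders of magnitude from M7 to M1 and M3, H2-DM varies far less, and H2-O is highest in the dendritic clusters M7 and M5 and in M9.

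The other pathway genes came from 8 lists. In mature B cells against pro-B or large pre-B cells all 10 members were higher, where 13.5% of 10381 genes were higher and 18.5% lower. None of the 7 genes of the RFX, CREB and NF-Y complex was called. Their median log2 ratio was -0.23, against -0.08 for all genes. Rfx5 was at 26.7 against 18.4 CPM and Rfxap at 20.9 against 33.4 CPM. Of 9 regulators of Ciita 5 were higher, among them Prdm1 (6.19 against 2.08 CPM, from 19 and 14 UMIs), whose product Blimp-1 represses Ciita, and the interferon gamma receptor gene Ifngr2 (111 against 42.0 CPM). The 2 lowest ratios of that list were those of Ifngr1 (84.1 against 59.0 CPM) and Socs1 (16.6 against 10.5 CPM), which were not called. Irf4 had 430 against 202 CPM and Irf8 456 against 217 CPM.

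Endosomal genes moved less than the members in the same comparison. Of 8, 3 were higher: the CD74-cutting protease gene Ctss (188 against 27.3 CPM, 6.88-fold, 5.82 to 8.16), Ctsz (159 against 60.9 CPM) and Lgmn (93.5 against 40.1 CPM). Ctsb had 67.8 against 57.9 CPM and Ctsl 13.4 against 11.0 CPM. Costimulation genes, which give T cells their second signal, were called higher for 5 of 5 tested, with Cd86 at 117 against 2.23 CPM and Cd40 at 57.0 against 3.12 CPM. Of 3 genes of class II turnover 2 were higher and 1 lower. Cd83, which protects surface class II from the ubiquitin ligase made by March1, had 619 against 6.39 CPM, and March1 itself had 55.7 against 1.04 CPM. The related ligase gene March8 had 0.978 against 2.67 CPM from 3 and 18 UMIs, a ratio of 0.366 (0.0690 to 1.25). Of 11 class I genes 1 was called, Tapbp at 190 against 63.3 CPM. H2-K1 had 1136 against 592 CPM and B2m 1344 against 952 CPM. H2-Eb2, a further beta chain gene of the region, had 38.1 against 2.38 CPM. Of the CD74 ligand and its partner, Mif was lower (239 against 692 CPM) and Cd44 was not called.

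In conventional dendritic cells against mature B cells, 6 members were higher and 2 lower, where 11.8% of 8953 genes were higher and 29.0% lower. The 6 were the 3 chains, Cd74, H2-DMa and H2-DMb1, and the 2 were H2-DMb2 and H2-Ob, at ratios of 0.163 (0.0960 to 0.259) and 0.138 (0.0851 to 0.212). H2-Oa had 81.7 CPM in conventional dendritic cells and 140 CPM in mature B cells, and Ciita 47.3 and 73.0 CPM, both short of 2-fold. H2-Eb2 was lower too, with 2 UMIs in dendritic cells (4.30 against 38.1 CPM, ratio 0.113, 0.0135 to 0.417). Of 8 endosomal genes 4 were higher, led by Ctsb (331 against 67.8 CPM) and Ctss (875 against 188 CPM). Of the 7 complex genes Nfyb was lower (28.0 against 70.4 CPM), and of 11 class I genes Pdia3 was higher (187 against 72.0 CPM). Of the costimulation genes, Cd80 had 101 against 1.63 CPM and Icosl 47.3 against 18.9 CPM, whereas Cd274, Cd40 and Pdcd1lg2 were lower. Of the 9 regulators, Ifngr1 (531 against 84.1 CPM) and Spi1 were higher, and Irf4 (38.7 against 430 CPM), Socs1 and Irf1 were lower.

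In monocytes against neutrophils 9 of the 10 members were higher, but so were 37.0% of the 10802 genes tested, and 9.06% were lower. The exception was H2-DMb2, with 5.09 CPM in monocytes and 4.22 CPM in neutrophils, a ratio of 1.21 (0.749 to 1.89). Beside this background, 7 of 8 endosomal genes were higher, with Ctss at 814 against 10.2 CPM, and 9 of 11 class I genes, with Canx at 297 against 96.4 CPM. None of the 7 complex genes was called. Cd86 (110 against 5.01 CPM) and Cd40 (14.2 against 0.844 CPM) were higher, and Pdcd1lg2 was lower.

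Over the 48 clusters with at least 20 cells, the genes whose log2(CPM + 1) was most like that of the summed chains, among 10287 others, were Hpgds (Pearson r = 0.80), Cd83 (0.78), Gm6377 (0.76), Ctss (0.76) and Cd180 (0.75). Hpgds makes prostaglandin D2, and Cd180 is a Toll-like receptor relative. Among the members themselves Cd74 had r = 0.95 with the chains, Ciita 0.80, H2-DMb1 0.77, H2-DMa 0.75 and H2-DMb2 0.67. H2-Oa and H2-Ob had 0.52 each. Most like summed H2-O were Ppp1r16b (0.86), Heg1 (0.85), Aff3 (0.85), Siglecg (0.85) and Ighd (0.84), with H2-DMb2 at 0.82 and the chains H2-Aa, H2-Ab1 and H2-Eb1 between 0.51 and 0.55. Ighd is the IgD heavy chain gene and Siglecg encodes an inhibitory B-cell lectin. These values describe clusters of 1 library that share free RNA and differ in depth.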

How the data were processed

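The deposited file is a single matrix of raw UMI counts for genes by barcodes. Its header names Cell Ranger 3.1.0, so the authors made the counts with that tool per the file headers. Per the submitters' processing notes, Seurat 3 and the mm10 build were also used. The members and gene lists were chosen with earlier results of these data known. A barcode needed at least 500 UMIs, 200 genes and no more than 10% mitochondrial UMIs, and Scrublet doublets were removed (scanpy 1.11.5, Python 3.11.15, numpy 2.4.6, scipy 1.17.1). This left 10485 cells with a median of 4855 UMIs. From 2000 variable genes without the members and H2-Eb2, 30 components and 15 neighbours gave Leiden clusters (leidenalg 0.10.2, resolution 1), and B-lineage and monocyte, macrophage or dendritic cells were clustered again alone.

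A cluster took the type with the most raised markers (at least 3, each at 2 times the CPM of other cells and in 10% of its cells), and stayed unnamed where its 10 leading genes or its other raised markers spoke for another type. This naming rule was set after clusters had been seen and was revised, and its strictest form left B3 (436 cells) without a stage and C16 (185 cells with neutrophil markers) unnamed. Summed counts gave CPM with exact Poisson intervals, shares exact Clopper-Pearson intervals, and ratios an exact binomial interval conditional on the summed UMIs. Log2 ratios had 0.5 counts added. With 1 library there is no replicate error, and intervals and the floor of 3 counts cover counting error only. The text names all members, the 2 highest and 2 lowest ratios of lists with over 6 genes, and the 5 genes most like the chains and H2-O, and further list genes were picked after their values were seen. The comparison script was tested on simulated data with 200 changed genes. Ifi30, Marchf1, Marchf8, H2-Ea and H2-Ea-ps were not found under these symbols, and March1 and March8 were used.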

Additional observations from a re-analysis of the deposited data

How the results depend on the processing

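Over the 4 comparisons 13 alternative values stayed within the counting interval and 28 did not. None turned to the opposite direction, but the ratio of mature B to pro-B or large pre-B cells was 1.01 (0.783 to 1.28) at the 5% mitochondrial limit and so had no direction there. The ratio of mature B to pro-B or large pre-B chains (22.1) was 16.5 and 20.8 at clustering resolutions 0.5 and 2.0, 1.01 and 24.3 at mitochondrial limits of 5% and 20%, 20.1 with at least 1500 UMIs, 25.4 with class II genes in the clustering, and 7.15 with classes from marker UMIs. The ratio of conventional dendritic to mature B cells (4.60) took values of 6.40, 4.97, 69.7, 5.29, 5.92, 5.07 and 1.89 in the same order, and 4.93 with doublets kept. The ratio of monocytes to neutrophils (21.4) took values of 13.3, 14.7, 17.6, 16.0, 6.18, 1.49 and 31.5 in that order, 5.99 with doublets kept and 14.8 without the 50 most abundant genes. The H2-O share difference between mature B and conventional dendritic cells (38.6 points) was 58.3 points at the 5% limit. Alternatives chosen after seeing the data counted B3 as mature B (16.3 and 6.23 for the first 2 ratios) or left out M6 (9.11 for monocytes). The cause was not tested, except that at the 5% limit the class named mature B held 38 other cells. Of the shares of cells with a UMI, 113 values at other depths stayed within their interval and 217 did not. No paired analysis was possible because the 4 records share 1 matrix whose columns carry no replicate number, and leaving out a replicate was not possible for the same reason. Depth limits Ciita, H2-Oa and the early B shares, which rest on few UMIs.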
